A study of Mus musculus with 15 samples.

Results

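The 35 genes described here mark microglia, the resident macrophages of the spinal cord, or states that microglia take on when they react to injury. Their levels were measured in RNA from motor neurons cut out of the spinal cord of a mouse model of spinal muscular atrophy (SMA). The genes were picked by symbol from the 36144 genes of the deposited table, with no threshold on any value. By role they are 9 homeostatic genes, 5 receptors and adaptors, 3 transcription factors and 4 other core markers, which together are called the core members below, and then 5 reactive genes, 3 other genes of the disease-associated state, 3 lysosomal genes and 3 inflammatory genes. P2ry12, Tmem119 and Cx3cr1 stand for the homeostatic state, and Apoe, Trem2, Cd68, Lgals3 and Spp1 for the reactive state. Of the 35, 32 reached 1 TPM (transcripts per 1000000: reads per transcript length, scaled to the same total in every library) in at least 3 libraries and were tested. Olfml3, Ptprc and Cst7 reached it in fewer libraries and are given as values only.

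RNA sequencing was done on lumbar motor neurons of segments L1 to L3 from mouse pups of postnatal day 6. The cells had been marked with cholera toxin subunit B, a tracer taken up at nerve endings and carried back to the cell body, and were isolated by laser capture, and poly(A) libraries for low input were made from them. There were 15 libraries, 3 biological replicates in each of 5 groups, on the FVB background. Males and females are described as used in equal numbers. The sample titles give no sex, so the balance within each group is not known. All groups carried the human SMN2 and SMNdelta7 transgenes. WT pups had both mouse Smn alleles (Smn+/+;SMN2;SMNdelta7) and received vehicle. SMA pups lacked both (Smn-/-;SMN2;SMNdelta7) and received vehicle. The other groups were SMA pups given 1 agent each. MW150, which inhibits the kinase p38α, was given at 5 mg/kg, and Pifithrin-alpha, which inhibits p53, at 2.2 mg/kg. SMN-C3 changes the splicing of SMN2 so that more full-length protein is made, and was given at 3 mg/kg. All pups were injected intraperitoneally each day from postnatal day 0. The capture was aimed at neurons, so the genes below belong to a cell type that the study did not set out to collect.

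Microglia enter the nervous system from the embryonic yolk sac and live there as self-renewing macrophages that depend on the receptor CSF1R. PU.1 (gene Spi1), IRF8 and SALL1 set up and hold their identity. In the healthy cord they survey their surroundings with fine processes, sense nucleotides through P2RY12 and sense the neuronal chemokine fractalkine through CX3CR1. Around dying cells and myelin debris the lipid receptor TREM2 signals through its adaptor TYROBP, homeostatic genes go down, and genes for lipid handling, lysosomes and phagocytosis such as Apoe, Lpl, Cd9, Cst7 and Spp1 go up. Early postnatal microglia in developing white matter show a related program. Several of these genes are not private to microglia: astrocytes make apolipoprotein E, motor neurons make osteopontin (Spp1), and lysosomal enzymes are found in nearly every cell.

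Start regions of the members were searched for letters that factors of myeloid cells are known to bind. PU.1 belongs to the ETS family of factors, which bind a GGAA core. The letters GAGGAA were taken for PU.1 and the letters AGGAAGT for ETS factors in general. For the AP-1 factors the letters were TGACTCA. All were looked for on both strands in the 250 bases before each RefSeq start site (GRCm38.p6). The table held 32 windows for 25 of the 35 members. GAGGAA was found in 13 of these 25 genes, against 25.9% of all 27025 genes with a window. AGGAAGT was found in 6 of the 25 genes (8.8% of all genes) and TGACTCA in 1 (5.16% of all genes). The first and second words share AGGAA and can overlap. The 120 bases before the start are shown for the 5 of the 8 state genes whose window lay outside the annotated gene, because they are the regions in which the homeostatic and reactive genes can be compared by eye. They run 5′ to 3′ on the gene's strand, with matches in capitals (a match on the other strand reads TTCCTC or TGAGTCA here).
P2ry12 (chr3:59262986-59263105, minus strand): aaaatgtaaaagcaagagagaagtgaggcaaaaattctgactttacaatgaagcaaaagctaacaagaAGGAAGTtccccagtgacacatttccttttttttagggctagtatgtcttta
Apoe (chr7:19699189-19699308, minus strand): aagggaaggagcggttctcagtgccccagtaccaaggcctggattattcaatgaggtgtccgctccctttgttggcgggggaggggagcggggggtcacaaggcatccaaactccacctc
Trem2 (chr17:48346281-48346400, plus strand): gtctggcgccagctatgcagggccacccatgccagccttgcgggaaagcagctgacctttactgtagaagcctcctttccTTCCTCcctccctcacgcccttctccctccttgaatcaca
Cd68 (chr11:69666171-69666290, minus strand): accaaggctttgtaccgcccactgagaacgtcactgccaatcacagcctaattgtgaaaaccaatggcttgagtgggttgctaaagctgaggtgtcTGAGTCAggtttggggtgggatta
Spp1 (chr5:104434991-104435110, plus strand): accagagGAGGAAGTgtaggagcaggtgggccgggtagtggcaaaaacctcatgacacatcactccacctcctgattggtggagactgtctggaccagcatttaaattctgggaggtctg
In P2ry12 the word AGGAAGT began 52 bases before the start. In Trem2 GAGGAA lay on the other strand at 40 bases, and in Spp1 GAGGAA at 113 bases and AGGAAGT at 112 bases overlapped. Cd68 held TGACTCA on the other strand at 24 bases and, outside the stretch shown, again at 149 bases, with GAGGAA at 225 bases. The stretch of Apoe held none of the words, and GAGGAA began 250 bases before its start. A match is a description of letters and says nothing of binding, and a window without one says only that these letters are not in it.

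Facts of the libraries bear on all values below. Choline acetyltransferase (Chat), which defines motor neurons, was at 36.6 to 132.7 TPM, and a list of 19 motor neuron genes summed to 13860 to 22670 TPM in the 15 libraries. Smn1, the mouse gene deleted in SMA, was at 8.98 to 23.3 TPM in WT, 0 to 0.462 in SMA, 0.162 to 1.50 with MW150, 0.212 to 0.737 with Pifithrin-alpha and 0 to 0.803 with SMN-C3, as the labels require. Genes at 1 TPM or more numbered 12311 to 14916. Transcripts of the mitochondrial genome took 3.76% to 12.6% of TPM in 13 libraries, 21.9% in WT 1 and 20.4% in SMA+Pifithrin-alpha 3. Those libraries stand apart, so the calls of members and most medians of the comparisons that use them are also given without them. Counts at an unadjusted p under 0.05 and counts of groups without overlap use all libraries. Of the deposited gene values, those of 220 genes stood, at the median over libraries, within 5% of 2 times the sum of their own transcripts, and Trem2 did so in every library. The level of Trem2 is therefore uncertain by that factor. With its value rebuilt from transcripts its log2 change was 1.19 in SMA over WT and -1.26 with Pifithrin-alpha over SMA (limma, adjusted p = 0.33 and 0.46).

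The sum of the core microglia genes was above 0 in every library, at levels far below those of motor neuron genes. Of single core members, Cd53 was listed at 0 in 2 libraries and P2ry13, Irf8 and Gpr34 in 1 each. The 21 core members together summed to 71.8 ± 6.26 TPM in WT (SD, n = 3; range 64.9 to 77.0) and to 138.0 ± 28.1 TPM in SMA (119.2 to 170.3). The sum was 112.6 ± 26.1 TPM with MW150 (91.0 to 141.6), 71.8 ± 28.2 TPM with Pifithrin-alpha (50.2 to 103.7) and 61.0 ± 10.9 TPM with SMN-C3 (49.2 to 70.5). Every SMA library therefore lay above every WT, Pifithrin-alpha and SMN-C3 library on this sum, and the MW150 libraries overlapped SMA and Pifithrin-alpha. In bulk samples such as these, fewer cells of a type and less RNA per cell cannot be told apart.

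No member passed the test in any of the 10 comparisons between groups in the main analysis. Values were compared as log2(TPM+1) with limma, with p-values adjusted by Benjamini-Hochberg over the 15425 genes tested and called at an adjusted p under 0.05. The F test over all 5 groups called 0.22% of all tested genes and none of the members, although 13 of the 32 had an unadjusted F-test p under 0.05, against 9.46% of all genes. The differences below are therefore given as measured values that did not pass the test. Fold changes on this scale are understated for genes near 1 TPM.

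**Figure D1:**
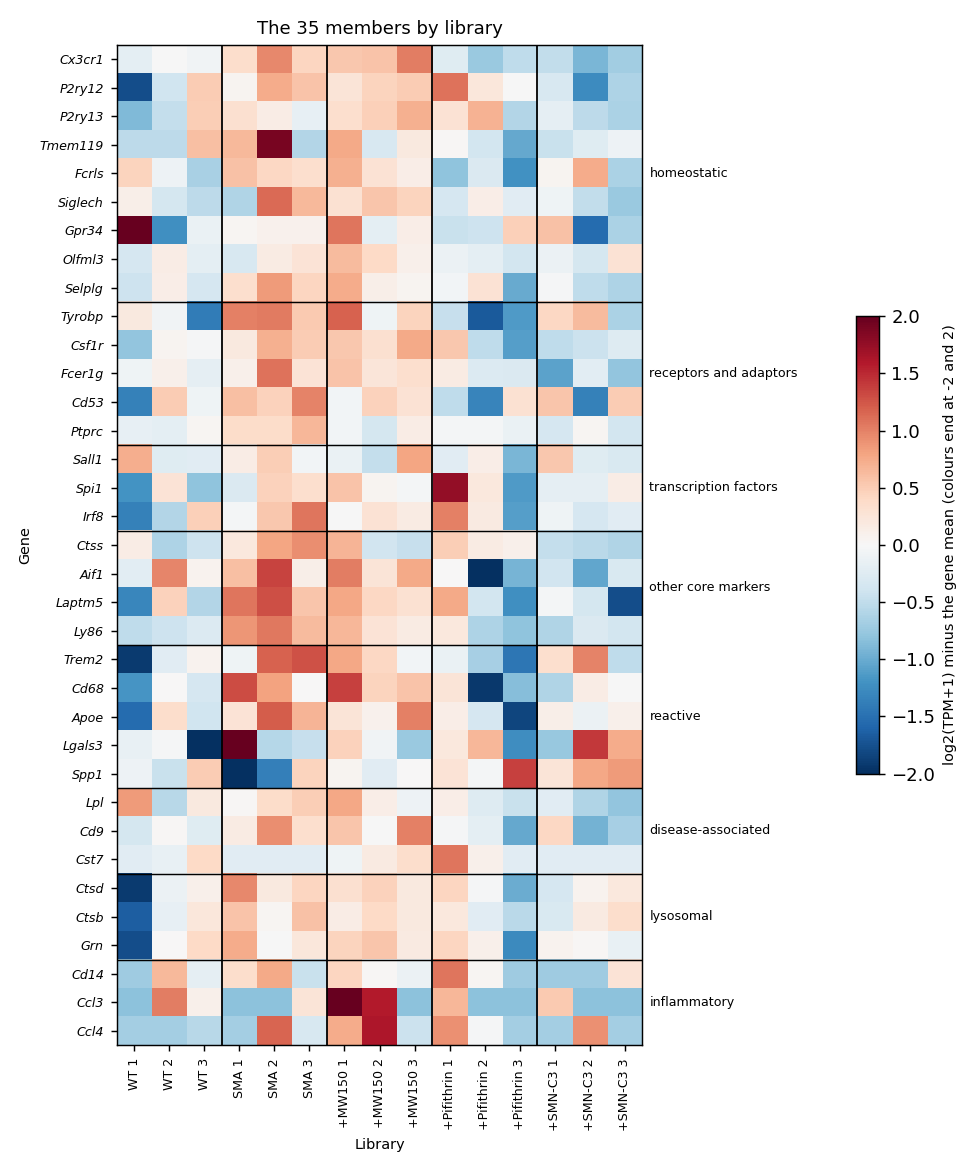
Levels of all 35 members (rows, by role) in the 15 libraries (columns, by group), as log2(TPM+1) minus the mean of the gene over all libraries; colours end at -2 and 2, and no error is shown. Most core rows are red in the 3 SMA columns and blue in the SMN-C3 columns, and WT 1 and SMA+Pifithrin-alpha 3, the libraries of highest mitochondrial share, are blue in the lysosomal rows.

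Homeostatic genes were low in all groups. P2ry12 (chromosome 3, 59216272 to 59262871, GRCm38), the ADP receptor that guides microglial processes, was at 1.12, 4.50 and 9.34 TPM in the 3 WT libraries, 6.51, 11.1 and 9.77 in SMA and 7.69, 8.86 and 9.33 with MW150. It was at 14.5, 7.49 and 6.25 TPM with Pifithrin-alpha and 4.79, 2.05 and 3.73 with SMN-C3. WT spread from the lowest value of all to within the SMA range, while all SMN-C3 libraries were below all SMA libraries. The log2 change was 1.01 (SE 0.48, adjusted p = 0.37) for SMA over WT and -1.18 (SE 0.48, adjusted p = 0.53) for SMN-C3 over SMA. Without WT 1 the former was 0.40 (adjusted p = 0.98, limma). The gene lies inside Med12l, which runs on the opposite strand, and reads of the pair can be mixed where strand is not used.

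Tmem119, a membrane protein that marks microglia apart from other macrophages (chromosome 5, 113793729 to 113800516), was at 0.692, 0.687 and 2.70 TPM in WT and 2.79, 8.04 and 0.611 in SMA. The treated groups had 3.11, 0.949 and 1.78 TPM with MW150, 1.47, 0.892 and 0.195 with Pifithrin-alpha and 0.784, 1.06 and 1.26 with SMN-C3. A single library, SMA 2, was far above the rest, and SMA 3 was below every WT library, so the groups overlapped fully. The difference of SMA from WT was 0.80 (SE 0.53, adjusted p = 0.47).

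Cx3cr1, the fractalkine receptor (chromosome 9, 119901616 to 120069879), separated the groups most cleanly of the 8 state genes. Its values were 1.94, 2.35 and 2.20 TPM in WT, 3.28, 5.49 and 3.51 in SMA and 3.88, 3.96 and 5.78 with MW150. With Pifithrin-alpha they were 1.83, 0.991 and 1.35 TPM and with SMN-C3 1.38, 0.774 and 1.07. All SMA and MW150 libraries lay above all WT libraries, and all Pifithrin-alpha and SMN-C3 libraries lay below them. The log2 change was 0.67 (SE 0.32, adjusted p = 0.37) for SMA over WT, -1.08 (SE 0.32, adjusted p = 0.46) for Pifithrin-alpha over SMA and -1.28 (SE 0.32, adjusted p = 0.19) for SMN-C3 over SMA. This gene had the smallest p of all members in the F test over 5 groups, at an adjusted p of 0.17 (limma). Its annotated span overlaps several other genes.

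Selplg, the P-selectin ligand that microglia express at rest, was the second most abundant homeostatic gene after P2ry12. It was at 2.62, 4.30 and 2.82 TPM in WT, 5.08, 7.70 and 5.52 in SMA, 7.06, 4.25 and 4.04 with MW150, 3.68, 4.94 and 1.41 with Pifithrin-alpha and 3.77, 2.39 and 2.15 with SMN-C3. The SMA libraries did not overlap WT, Pifithrin-alpha or SMN-C3 (log2 change 0.74, SE 0.38, adjusted p = 0.39 against WT). The remaining homeostatic genes were P2ry13, Siglech, Fcrls, Gpr34 and the secreted protein gene Olfml3. P2ry13 ranged from 0 to 2.03 TPM over all libraries, Siglech from 0.691 to 5.20, Fcrls from 0.476 to 4.70 and Olfml3 from 0.00408 to 1.01. Gpr34, a lysophosphatidylserine receptor, ranged from 0 to 11.8 TPM, and WT 1 alone held the highest value, with the next at 5.09. Against WT its log2 change in SMA was -0.19, and without WT 1 it was 0.75.

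**Figure D2:**
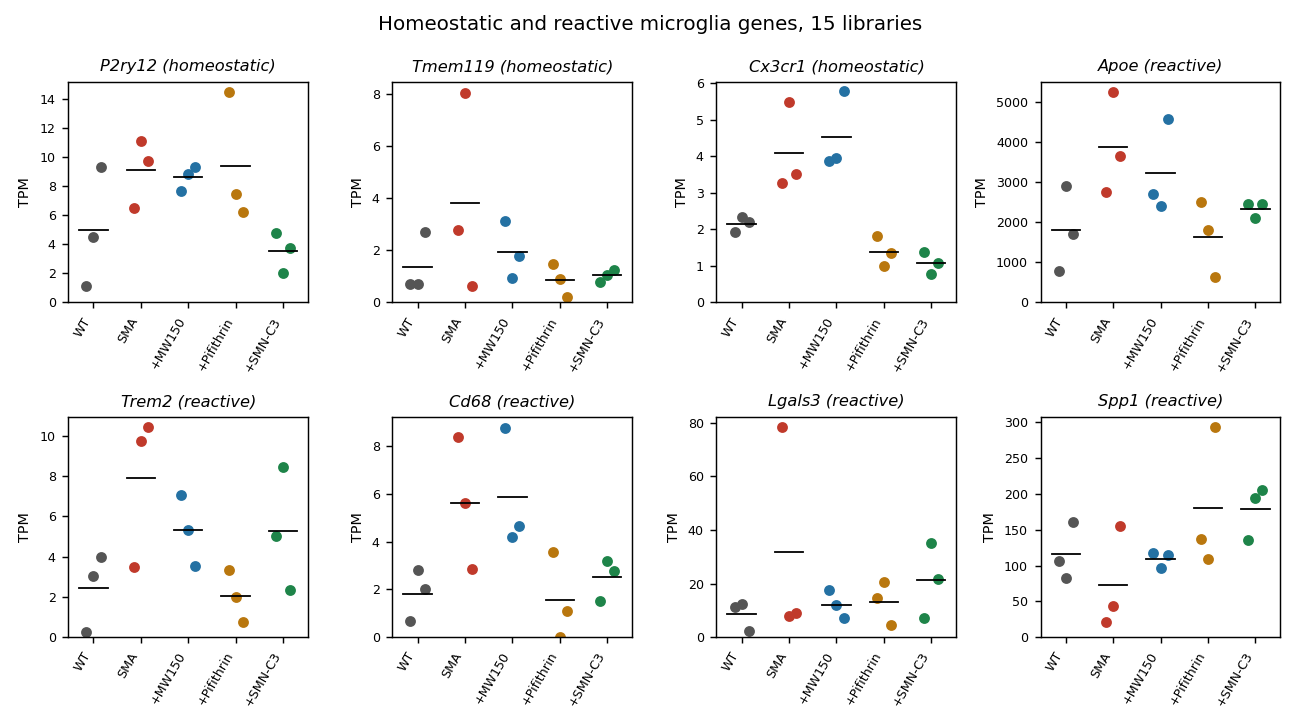
TPM of the 3 homeostatic and 5 reactive genes (1 panel each, y axes from 0) by group; points are libraries and bars are group means of 3 libraries. Cx3cr1 separates SMA and SMA+MW150 (3.28 to 5.78 TPM) from the other 9 libraries (0.774 to 2.35 TPM), Lgals3 is highest in SMA 1 (78.3 TPM) and next in SMA+SMN-C3 2 (35.1 TPM), and Spp1 is lowest in SMA 1 and SMA 2.

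Receptors and adaptors were next. Tyrobp, the adaptor (DAP12) through which TREM2 signals, was at 13.9, 11.4 and 3.95 TPM in WT and 25.2, 25.8 and 17.7 in SMA. The treated groups had 28.5, 11.3 and 16.8 TPM with MW150, 8.47, 3.08 and 4.93 with Pifithrin-alpha and 16.3, 19.2 and 7.43 with SMN-C3. SMA lay above WT and above Pifithrin-alpha without overlap and overlapped the other treated groups. The change was 1.28 (SE 0.47, adjusted p = 0.3) for SMA over WT and -1.95 (SE 0.47, adjusted p = 0.46) for Pifithrin-alpha over SMA, the most negative value of any member in the 3 treated comparisons with SMA.

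Fcer1g, the common gamma chain of Fc receptors, was at 7.01, 8.18 and 6.53 TPM in WT, 8.19, 17.2 and 9.36 in SMA, 11.7, 9.08 and 9.76 with MW150, 8.58, 6.05 and 6.00 with Pifithrin-alpha and 3.07, 6.39 and 3.97 with SMN-C3. The highest WT and the lowest SMA library differed in the third digit only, whereas every SMN-C3 library was below every SMA library (log2 change -1.18, SE 0.34, adjusted p = 0.27). Csf1r, the receptor on which microglia depend for survival, was at 1.62 to 3.73 TPM in WT and 4.24 to 6.43 in SMA, which did not overlap. It was at 2.22 to 2.82 TPM with SMN-C3, below all SMA libraries (log2 change -0.87, SE 0.40, adjusted p = 0.57). The tetraspanin gene Cd53 ranged from 0 to 4.08 TPM. Ptprc (CD45), the pan-leukocyte phosphatase, did not reach the level for testing: it was at 0.153 to 0.358 TPM in WT and 0.702 to 1.10 in SMA, and at most 0.469 TPM in any treated library.

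The transcription factors were low in all groups. Irf8 was at 0, 0.700 and 2.56 TPM in WT, 1.49, 2.71 and 4.37 in SMA, 1.56, 2.14 and 1.87 with MW150, 4.15, 1.89 and 0.195 with Pifithrin-alpha and 1.42, 1.04 and 1.19 with SMN-C3. Spi1, which encodes PU.1, was at 0.0412, 1.88 and 0.357 TPM in WT, 0.936, 2.27 and 2.02 in SMA, 2.53, 1.47 and 1.32 with MW150, 7.08, 1.76 and 0.0799 with Pifithrin-alpha and 1.10, 1.09 and 1.63 with SMN-C3. Both factors were low in WT 1 and in SMA+Pifithrin-alpha 3 and high in SMA+Pifithrin-alpha 1, so that the Pifithrin-alpha group alone spanned nearly the whole range of Spi1. Sall1, which holds microglial identity, ranged from 0.307 to 3.26 TPM. SMA differed from WT by 1.01 (SE 0.51, adjusted p = 0.39) for Irf8, 0.74 (SE 0.57, adjusted p = 0.52) for Spi1 and 0.11 (SE 0.43, adjusted p = 0.91) for Sall1.

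Of the other core markers, Ctss, the lysosomal protease cathepsin S, was at 14.8, 8.23 and 9.61 TPM in WT, 15.4, 23.4 and 26.1 in SMA, 21.8, 9.90 and 9.30 with MW150, 19.0, 14.9 and 14.2 with Pifithrin-alpha and 9.23, 8.75 and 8.32 with SMN-C3. Laptm5, a lysosomal membrane protein of blood-derived cells, was at 2.05, 9.35 and 4.03 TPM in WT, 14.8, 17.4 and 10.1 in SMA, 11.8, 8.96 and 8.33 with MW150, 11.8, 4.84 and 2.22 with Pifithrin-alpha and 6.30, 4.91 and 1.21 with SMN-C3. For both genes every SMA library was above every WT and every SMN-C3 library. The changes of Ctss were 0.94 (SE 0.34, adjusted p = 0.3) over WT and -1.18 (SE 0.34, adjusted p = 0.28) for SMN-C3 over SMA. Those of Laptm5 were 1.45 (SE 0.54, adjusted p = 0.31) and -1.69 (SE 0.54, adjusted p = 0.37).

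Ly86 (MD-1), which pairs with the Toll-like receptor homologue RP105, is given by library because it had the smallest adjusted p of all members between SMA and WT; it was chosen after its values were seen. It was at 3.37, 3.66 and 4.17 TPM in WT and 10.5, 11.9 and 8.70 in SMA. With MW150 it was at 8.83, 6.50 and 5.98 TPM, with Pifithrin-alpha at 6.22, 3.06 and 2.55 and with SMN-C3 at 3.13, 4.11 and 3.81. WT, SMA and SMN-C3 were each tight, SMA stood above all WT, Pifithrin-alpha and SMN-C3 libraries, and MW150 lay between with 1 library inside the SMA range. The log2 change was 1.26 (SE 0.33, adjusted p = 0.15) for SMA over WT and -1.27 (SE 0.33, adjusted p = 0.2) for SMN-C3 over SMA. Aif1 (IBA1), the usual histological marker of microglia, ranged from 0.103 to 12.8 TPM and overlapped between SMA and WT.

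Of the 5 reactive genes, 4 had a higher mean in SMA than in WT, and Spp1 a lower one. Apoe (chromosome 7, 19696109 to 19699188) was by far the most abundant member, at 777, 2902 and 1716 TPM in WT, 2755, 5260 and 3648 in SMA and 2700, 2404 and 4568 with MW150. It was at 2497, 1795 and 633 TPM with Pifithrin-alpha and 2464, 2095 and 2445 with SMN-C3. WT 2 exceeded SMA 1, so these groups overlapped, and all Pifithrin-alpha and SMN-C3 libraries lay below SMA. Its change was 1.26 (SE 0.48, adjusted p = 0.31) over WT, -1.41 (SE 0.48, adjusted p = 0.46) for Pifithrin-alpha over SMA and -0.69 for SMN-C3 over SMA.

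Trem2, the lipid receptor itself (chromosome 17, 48346401 to 48354147), had values of 0.255, 3.04 and 3.97 TPM in WT, 3.48, 9.75 and 10.4 in SMA and 7.06, 5.30 and 3.54 with MW150. With Pifithrin-alpha it was at 3.32, 2.01 and 0.731 TPM and with SMN-C3 at 5.00, 8.47 and 2.33. SMA 1 was within the WT range, whereas SMA 2 and SMA 3 were the highest libraries of all. Its change was 1.48 (SE 0.56, adjusted p = 0.31) over WT and -1.54 (SE 0.56, adjusted p = 0.46) for Pifithrin-alpha over SMA.

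Cd68, a lysosomal glycoprotein of phagocytes (chromosome 11, 69664213 to 69666153), was at 0.675, 2.80 and 1.99 TPM in WT, 8.36, 5.61 and 2.84 in SMA and 8.77, 4.20 and 4.65 with MW150. It was at 3.55, 0 and 1.10 TPM with Pifithrin-alpha, listed at 0 in 1 library, and at 1.52, 3.20 and 2.79 with SMN-C3. SMA 3 exceeded the highest WT library by a small margin, on which the lack of overlap rests. The change was 1.21 (SE 0.52, adjusted p = 0.35) over WT and -1.55 (SE 0.52, adjusted p = 0.46) for Pifithrin-alpha over SMA.

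Lgals3, galectin-3 (chromosome 14, 47367751 to 47386160), was at 11.1, 12.3 and 2.32 TPM in WT, 78.3, 8.05 and 8.86 in SMA, 17.5, 11.8 and 7.11 with MW150, 14.7, 20.4 and 4.69 with Pifithrin-alpha and 7.01, 35.1 and 21.5 with SMN-C3. SMA 1 alone made the SMA mean of 31.7 ± 40.3 TPM, and the other SMA libraries lay within the WT range. The change over WT was 1.24 (SE 0.79, adjusted p = 0.45).

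Spp1, osteopontin (chromosome 5, 104435118 to 104441050), had a lower mean in SMA than in WT. It was at 106, 82.7 and 161 TPM in WT and 21.4, 43.4 and 155 in SMA, and at 118, 96.5 and 115 with MW150, 138, 109.8 and 294 with Pifithrin-alpha and 136, 194 and 206 with SMN-C3. SMA 1 and SMA 2 were the lowest of the 15 libraries, and SMA 3 was inside the WT range. The change was -1.08 (SE 0.52, adjusted p = 0.37) for SMA over WT with a 95% interval of -2.17 to 0.02, 1.62 (SE 0.52, adjusted p = 0.46) for Pifithrin-alpha and 1.72 (SE 0.52, adjusted p = 0.32) for SMN-C3 over SMA. Without SMA 3 the last of these was 2.49 with an adjusted p of 0.034 (limma), the one case in which leaving out 1 library made a member pass. Spp1 shares its strand with the overlapping transcript Gm42793. It is also a gene of motor neurons, and which cells its reads came from was not tested.

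The other disease-associated genes were Cd9, Lpl and Cst7. Cd9, a tetraspanin also made by myelinating glia, was at 67.8, 88.2 and 73.7 TPM in WT, 98.0, 166 and 109.5 in SMA, 129, 86.3 and 177 with MW150, 85.6, 75.8 and 42.5 with Pifithrin-alpha and 116, 44.9 and 54.7 with SMN-C3. Every SMA library exceeded every WT and every Pifithrin-alpha library. The changes were 0.66 (SE 0.37, adjusted p = 0.41) over WT and -0.89 (SE 0.37, adjusted p = 0.46) for Pifithrin-alpha over SMA. Lpl, lipoprotein lipase, was at 4.47, 1.05 and 2.47 TPM in WT, 2.07, 2.91 and 3.27 in SMA, 4.18, 2.31 and 1.83 with MW150, 2.30, 1.53 and 1.23 with Pifithrin-alpha and 1.58, 0.997 and 0.743 with SMN-C3. WT 1 held its highest value, and the SMN-C3 libraries lay below all SMA libraries (log2 change -0.84, SE 0.39, adjusted p = 0.58). Cst7, cystatin F, was listed at 0 in all SMA and all SMN-C3 libraries and reached 1.46 TPM at most, in SMA+Pifithrin-alpha 1.

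Lysosomal genes were abundant in all libraries. Ctsd, cathepsin D, was at 77.1, 270.4 and 315 TPM in WT, 569, 333 and 392.0 in SMA, 366, 400.3 and 336 with MW150, 393, 288 and 146 with Pifithrin-alpha and 231, 306 and 337 with SMN-C3. Ctsb, cathepsin B, was at 80.2, 226 and 297 TPM in WT, 376, 259.7 and 383 in SMA, 280.4, 337 and 289.6 with MW150, 294, 217 and 175 with Pifithrin-alpha and 205, 289 and 324 with SMN-C3. WT 1 was the lowest of all libraries for both genes and for Grn, progranulin, which ranged from 8.97 to 56.0 TPM. Mitochondrial share was highest in that library. Over WT the change in SMA was 1.16 (SE 0.44, adjusted p = 0.31) for Ctsd and 0.93 (SE 0.37, adjusted p = 0.34) for Ctsb. Without WT 1 and SMA+Pifithrin-alpha 3 these values were 0.53 for Ctsd, 0.37 for Ctsb and 0.12 for Grn (0.78 with all libraries).

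Inflammatory genes were close to 0. The chemokine gene Ccl3 was at 0, 2.60 and 0.893 TPM in WT, 0, 0 and 1.11 in SMA, 8.14, 4.30 and 0 with MW150, 1.80, 0 and 0 with Pifithrin-alpha and 1.55, 0 and 0 with SMN-C3, and listed at 0 in 8 of 15 libraries. Ccl4, its neighbour on chromosome 11, was at 0, 0 and 0.0907 TPM in WT, 0, 2.58 and 0.273 in SMA, 1.65, 3.90 and 0.189 with MW150, 2.02, 0.560 and 0 with Pifithrin-alpha and 0, 2.01 and 0 with SMN-C3, at 0 in 6. The highest value of Ccl3 was in SMA+MW150 1 and that of Ccl4 in SMA+MW150 2, and every group held libraries under 1 TPM for both. Cd14, the co-receptor for bacterial lipopolysaccharide, did not exceed 2.47 TPM.

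SMA against WT asked what loss of Smn does in these captured cells. The limma test called 0.363% of all 15425 genes, almost all of them higher in SMA, and 0 of the 32 members. The median member stood 0.74 higher in SMA on the log2 scale, where the median of all tested genes was itself 0.24 higher. Of the 32 members, 29 had a log2 change above 0, against 66.5% of all genes. The exceptions were Gpr34, Spp1 and Ccl3. At an unadjusted p under 0.05 there were 9 members, all higher (Tyrobp, Laptm5, Ly86, Ctss, Apoe, Trem2, Cd68, Ctsd and Ctsb), against 10.6% of all genes higher at that level. The groups did not overlap for 11 members, all higher in SMA, against 14.5% of all genes.

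By role, medians of the log2 change ran from 0.30 to 1.24. The 8 tested homeostatic genes had a median of 0.65 with 7 of 8 above 0, and P2ry12, Tmem119 and Cx3cr1 alone had 0.80 with all 3 above 0. The reactive genes had a median of 1.24 with 4 of 5 above 0. Lgals3, the middle one, ran from 0.219 to 1.78 when single libraries were left out. The lowest such values were 0.75 for Apoe, 0.87 for Trem2 and 0.875 for Cd68, and Spp1 stayed below 0. Receptors and adaptors stood at 0.86 (4 of 4 above 0), transcription factors at 0.74 (3 of 3), other core markers at 1.10 (4 of 4), lysosomal genes at 0.93 (3 of 3; Ctsb, the middle one, was at 0.37 without WT 1), the disease-associated pair at 0.40 (2 of 2) and inflammatory genes at 0.30 (2 of 3). Homeostatic and reactive genes thus had the same sign in SMA with the exceptions of Gpr34 and Spp1. Without WT 1 and SMA+Pifithrin-alpha 3, the median of all members was 0.58 where that of all genes was 0.12, with 29 of 32 above 0. With libraries scaled by the median of ratios, which took the median of all genes to 0.04, it was also 0.58, with 27 of 32 above 0; Sall1 and Lpl turned negative under that scaling.

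The 3 comparisons with treatment asked how each agent moves the captured cells of SMA pups. They share the 3 SMA libraries, so a high or low SMA library shows in all of them. MW150 against SMA called 0.00648% of all genes and 0 members. The median member was at -0.09 (all genes 0.06), with 12 above 0 and 20 below, where 57.9% of all genes were above 0. Ccl3 alone had an unadjusted p under 0.05 (log2 change 1.51, SE 0.71, adjusted p = 1, 95% interval 0.00 to 3.01), where 1.51% of all genes were higher at that level. Of the 32 tested members P2ry13 alone was without overlap, higher with MW150, against 7.53% of all genes. Untested and under 1.10 TPM in both groups, Ptprc was lower with MW150 and Cst7 higher without overlap. The median turned to 0.05 without SMA 2, so its sign rests on that library. The reactive genes had a median of -0.28 and P2ry12, Tmem119 and Cx3cr1 one of -0.05.

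Pifithrin-alpha against SMA called 0.00648% of all genes and 0 members. The median member was 0.63 lower than in SMA (log2 change -0.63, all genes -0.22), and 27 of 32 members were below 0, against 65.5% of all genes. At an unadjusted p under 0.05, 11 members were lower, against 7.55% of all genes, and Spp1 was higher, against 3.16%. The 11 were Cx3cr1, Fcrls, Tyrobp, Cd53, Aif1, Laptm5, Ly86, Apoe, Trem2, Cd68 and Cd9, each with an adjusted p of 0.46 (limma). For 10 members all treated libraries were below all SMA libraries (9.76% of all genes). The reactive median was -1.41 and that of P2ry12, Tmem119 and Cx3cr1 -1.08, with P2ry12 itself at -0.01. SMA+Pifithrin-alpha 3 had a mitochondrial share of 20.4%. Without that library and WT 1 the median of the members was -0.43 with 24 of 32 below 0, and the median of all genes was then 0.005. With array weights, which put a weight of 276 on SMA+Pifithrin-alpha 2, 17 members and 33.4% of all genes passed. The estimation of those weights stopped before it reached its tolerance, so these calls are not relied on.

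SMN-C3 against SMA called 0.0648% of all genes and 0 members. The median member stood at -0.72 (all genes -0.23), with 30 of 32 below 0, against 73.2% of all genes, and all 19 tested core members were below 0 with a median of -0.87. At an unadjusted p under 0.05, 11 members were lower, against 7.94% of all genes. They were P2ry12, Cx3cr1, Selplg, Csf1r, Fcer1g, Aif1, Laptm5, Ly86, Ctss, Cd9 and Lpl. Spp1 was higher at that level, against 0.59% of all genes. For 13 members the groups did not overlap, all lower with SMN-C3, where 18.2% of all genes did the same. P2ry12, Tmem119 and Cx3cr1 had a median of -1.18 and the reactive genes one of -0.51. Without WT 1 and SMA+Pifithrin-alpha 3, Ly86 passed the test in this comparison (log2 change -1.27, adjusted p = 0.046 with limma), and no other member did, where 1.09% of all genes passed.

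**Figure D3:**
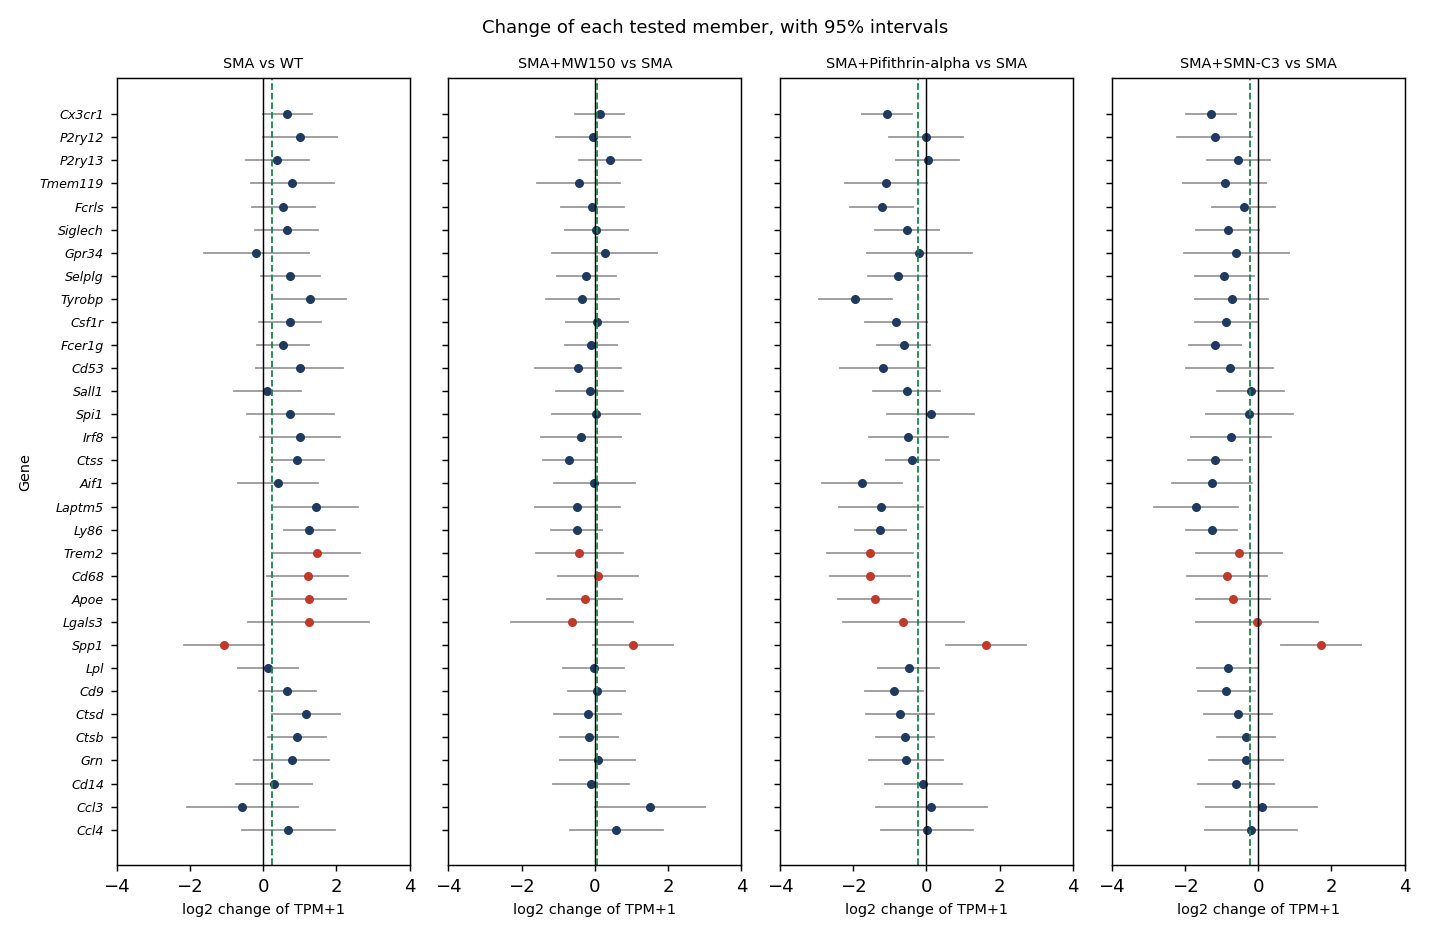
Log2 change of TPM+1 for each tested member (rows) in 4 comparisons (panels); points are estimates, lines their 95% intervals, the solid line marks 0 and the dashed line the median of all genes; reactive genes are in red. In the first panel 29 of 32 points are right of 0, and in the last 30 of 32 are left of it, with Spp1 opposite to the majority in both.

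The treated groups were also compared with WT, and these comparisons share the 3 WT libraries. MW150 against WT called 0.143% of all genes and 0 members, with a median of 0.74 (all genes 0.31) and 30 of 32 above 0, against 74.8% of all genes. In it 5 members (Cx3cr1, Ly86, Cd68, Ctsd and Ccl4) were higher at an unadjusted p under 0.05, against 9.56% of all genes. Without WT 1 and SMA+Pifithrin-alpha 3 the median was 0.465 (all genes 0.195). Pifithrin-alpha against WT called 0.117% of all genes and 0 members, with a median of -0.05 (all genes 0.02). That sign was not stable: the median was 0.10 (all genes 0.15) without WT 1 and SMA+Pifithrin-alpha 3, 0.15 without WT 2, and 0.02 or 0.235 when SMA+Pifithrin-alpha 2 or 3 was left out. Aif1 alone had an unadjusted p under 0.05 there (log2 change -1.35, SE 0.52, adjusted p = 0.78), where 1.67% of all genes were lower at that level. SMN-C3 against WT called 0.0194% of all genes and 0 members, with a median of -0.10 (all genes -0.004; 0.04 for the members without WT 2 and 0.06 without WT 3) and no member at an unadjusted p under 0.05, against 7.31% of all genes. In that comparison the 5 reactive genes all had a mean above WT (median 0.64) while the core had a median of -0.15. WT 1 held the lowest WT value of Apoe (777 TPM), Trem2 (0.255) and Cd68 (0.675), but not of Lgals3 or Spp1. Without WT 1 the core median was -0.28, and the reactive median was not taken, so how far this contrast rests on that library was not tested.

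Between agents, the median member was higher with MW150 than with either other agent. Against Pifithrin-alpha the median member was at 0.57 (all genes 0.31) and against SMN-C3 at 0.59 (all genes 0.30). Without WT 1 and SMA+Pifithrin-alpha 3 the former was 0.36 (all genes 0.06), and with median-of-ratios scaling it was 0.32 (all genes 0.03). The tests called 0% and 0.00648% of all genes and 0 members. Against SMN-C3, Cx3cr1 had a log2 change of 1.41 (SE 0.32, adjusted p = 0.14), which passed when only these groups were fitted (adjusted p = 0.032) or when WT 1 and SMA+Pifithrin-alpha 3 were left out (adjusted p = 0.033, limma). Of all genes, 4.8% passed in the former setting and 2.46% in the latter, and 1 of 32 members did in each. Pifithrin-alpha against SMN-C3 called 0% of all genes and 0 members, with a median of 0.03 (all genes 0.08). That median was -0.34 without SMA+Pifithrin-alpha 1.

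Other genes of the same pathways were read from lists. Of 25 further microglia genes, 19 were tested and 2 were called higher in SMA over WT, where 0.363% of all genes were called. C1qc, a chain of complement C1q, had 6.33 ± 2.36 TPM in WT and 25.1 ± 5.31 in SMA (SD, n = 3), a log2 change of 1.86 (SE 0.32, adjusted p = 0.014). Rnase4, a secreted ribonuclease, had 2.26 ± 0.755 and 17.8 ± 11.2 TPM, a change of 2.39 (SE 0.50, adjusted p = 0.048). The call of C1qc was lost without WT 1, SMA 2 or SMA 3 in turn (adjusted p up to 0.084) and with only these groups in the fit (0.15). That of Rnase4 was lost in most alternatives, up to an adjusted p of 0.29 without SMA 1. The list as a whole had a median of 0.56 with 14 of 19 above 0. Over all genes the median was 0.24 and 66.5% were above 0.

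All genes had a median of 0.24 in SMA over WT, with 66.5% above 0 and 0.363% called. In the list of inflammatory genes, 11 of 18 were tested, 10 were above 0 (median 0.69) and 1 was called higher. Icam1, an adhesion molecule also made by endothelium and astrocytes, had 0.599 ± 0.468 TPM in WT and 19.6 ± 16.5 in SMA, a change of 3.44 (SE 0.60, adjusted p = 0.015). Its call was lost without WT 1, WT 2 or SMA 1 (adjusted p up to 0.11), with only these groups in the fit (0.06) and without the filter on low values (0.086). The list of TREM2-TYROBP signalling genes had 7 of 15 tested, a median of 0.60, 6 above 0 and none called. Sirpa, the receptor for CD47, had the highest level in it (log2 change 0.30), followed by Ptpn6, the phosphatase SHP-1 (1.62, adjusted p = 0.21). Genes of the postnatal and disease-associated state had 14 of 20 tested, a median of 0.68, 12 above 0 and none called, with the fatty acid binding protein Fabp5 at 0.15 and galectin-1 (Lgals1) at 0.73. Ligands and receptors between neurons and microglia had 12 of 15 tested, 9 above 0, none called and a median of 0.29, near the 0.24 of all genes. Their most abundant genes, Cd47 and Cd200, which neurons show to microglia as restraining signals, stood at -0.06 and -0.24. None of these lists had a called gene in a treated group against SMA.

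Markers of other glia differed in the same direction as the microglia genes. All 13 astrocyte genes were tested, and all had a log2 change above 0 in SMA over WT, with a median of 0.82 and none called. Of all genes 66.5% were above 0, with a median of 0.24. The summed level of the astrocyte genes was 803 to 1563 TPM in WT and 1457 to 2073 in SMA, with Aldoc and Aqp4 the most abundant. The 14 genes of the oligodendrocyte lineage had a median of 0.85 with 11 above 0, and sums of 805 to 2312 TPM in WT and 961 to 4734 in SMA. The 19 motor neuron genes had a median of -0.16. In the treated groups the astrocyte sum was 1521 to 1949 TPM with MW150, 793 to 1589 with Pifithrin-alpha and 1422 to 1641 with SMN-C3. The oligodendrocyte sum was 1075 to 6557 TPM with MW150, 503 to 1495 with Pifithrin-alpha and 696 to 2061 with SMN-C3. With Pifithrin-alpha against SMA the astrocyte median was -0.98 (12 of 13 below 0) and the oligodendrocyte median -1.15 (14 of 14 below 0). The median of all genes was -0.22 there, with 65.5% below 0. With SMN-C3 the astrocyte and oligodendrocyte medians were -0.92 (12 of 13) and -0.71 (13 of 14), against -0.23 and 73.2% for all genes. With MW150 they were -0.35 and 0.17 (all genes 0.06). No astrocyte or oligodendrocyte gene was called, and the part of other glia in the values of the microglia genes was not tested.

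Other macrophages and blood cells were also looked for. Of 12 border macrophage genes 3 were tested, and the list summed to 1.28 to 10.7 TPM over all libraries. By group the sum was 3.55 to 6.82 TPM in WT, 2.59 to 8.74 in SMA and 8.97 to 9.95 with MW150. It was 4.73 to 10.7 TPM with Pifithrin-alpha and 1.28 to 6.93 with SMN-C3. Mrc1 and Lyve1, which define these cells, stayed at or below 0.73 TPM. They were therefore not among the 3 tested genes, and the sum also rests on other genes of the list. Monocyte and neutrophil genes (4 of 13 tested) summed to 0.248 to 1.69 TPM in WT, 7.94 to 40.6 in SMA, 2.93 to 16.5 with MW150, 1.27 to 4.21 with Pifithrin-alpha and 2.29 to 7.49 with SMN-C3. Their tested genes had a median of 1.90 in SMA over WT (all genes 0.24) and none was called. S100a9, a neutrophil protein, was at 0, 11.3 and 14.96 TPM in the SMA libraries. These cells also express Tyrobp, Fcer1g, Laptm5 and Ptprc, and their part in those values was not tested. None of 12 lymphocyte genes was tested, and they summed to 0.615 to 6.61 TPM.

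**Figure D4:**
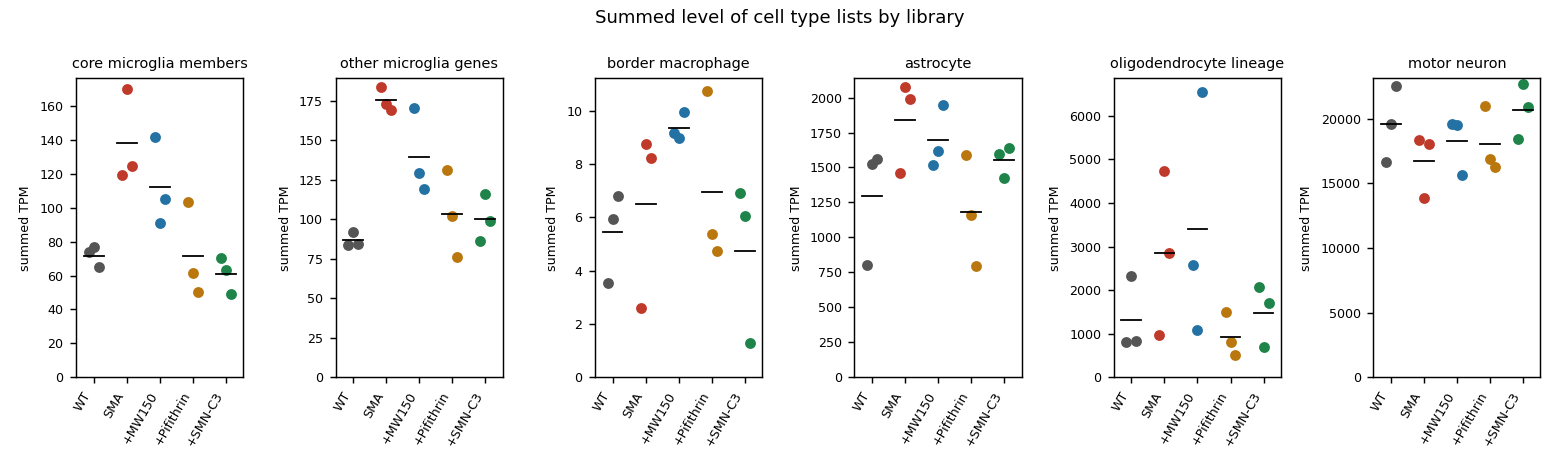
Summed TPM of 6 gene lists (panels, y axes from 0) by group; points are libraries and bars are group means of 3 libraries. The core microglia members and the other microglia genes have their highest group mean in SMA, border macrophage genes stay under 11 TPM, and astrocyte and oligodendrocyte sums have their lowest mean in SMA+Pifithrin-alpha.

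To describe which genes follow the microglia signal, all tested genes were ranked by Pearson's r, over the 15 libraries, with the mean log2(TPM+1) of 8 core genes (P2ry12, Tmem119, Cx3cr1, Csf1r, Tyrobp, Cd53, Laptm5 and Ctss). The libraries share depth, dissection and the group structure, so these values are a description. The closest gene outside the members was Slc4a4, a bicarbonate transporter on the astrocyte list (r = 0.954, Spearman's rho 0.964). Then came Gm16232 (0.946), the ATP-gated channel gene P2rx7 (0.925), Gm35405 (0.918), the ubiquitin ligase gene Nedd4l (0.905), the Wnt receptor gene Fzd2 (0.903), Renbp (0.899), Mfge8 (0.896), the GABA transaminase gene Abat (0.891) and Zfp609 (0.886). Among members outside those 8 genes, Ly86 was closest (0.926), followed by Cd9 (0.827), Selplg (0.816), Cd68 (0.784), Aif1 (0.777) and Apoe (0.771). Lgals3 (0.04) and Gpr34 (0.06) did not follow the signal, and Spp1 ran against it (-0.596). Sall1 (0.242), Ccl3 (0.339), Ccl4 (0.392) and Fcrls (0.413) followed it weakly. With the group means taken out, r was -0.19 for Spp1, -0.218 for Lgals3, -0.223 for Gpr34 and -0.177 for Fcrls. It was then 0.0893 for Sall1, 0.516 for Ccl3, 0.31 for Ccl4, 0.698 for Ly86 and 0.895 for Slc4a4.

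Some gene totals rest in part on transcripts that do not code for the full protein. For Ctsb, the transcript Ctsb-202, annotated as a retained intron, made up 49.5% of the summed level and the coding Ctsb-201 50.2%. For Lpl the retained-intron transcript Lpl-202 made up 65.5%. The retained-intron Olfml3-202 made up 55.2% of Olfml3. Siglech-204, annotated for nonsense-mediated decay, made up a smaller part of Siglech, at 24.5%. Among the reactive genes, Apoe-209 gave 74.1% of Apoe, Spp1-202 gave 92.3% of Spp1, Trem2-201 gave 79.4% of Trem2 and Cd68-201 gave 74.9% of Cd68. The split of Cx3cr1 (60.5% and 37.0%) and of Tyrobp (56.1% and 43.4%) was between a pair of transcripts each.

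The deposited values carry no counts. From the smallest steps between low values, depth was estimated at 27.1 to 80.5 M fragments a library (M, 1000000), which gives a rough number of fragments behind a value and enters no test. Apoe stood on 27400 to 138000 estimated fragments. P2ry13 stood on 0 to 170, Sall1 on 73 to 616, Fcrls on 45 to 609 and Cst7 on 0 to 26. Cd53 had 0, 89 and 50 estimated fragments in WT and 28, 1 and 159 with Pifithrin-alpha. Copies made by PCR are counted in these numbers, so they overstate the molecules sampled. For Cd53 the SMN-C3 libraries alone spanned 0 to 184 estimated fragments, the whole range of that gene.

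**Figure D5:**
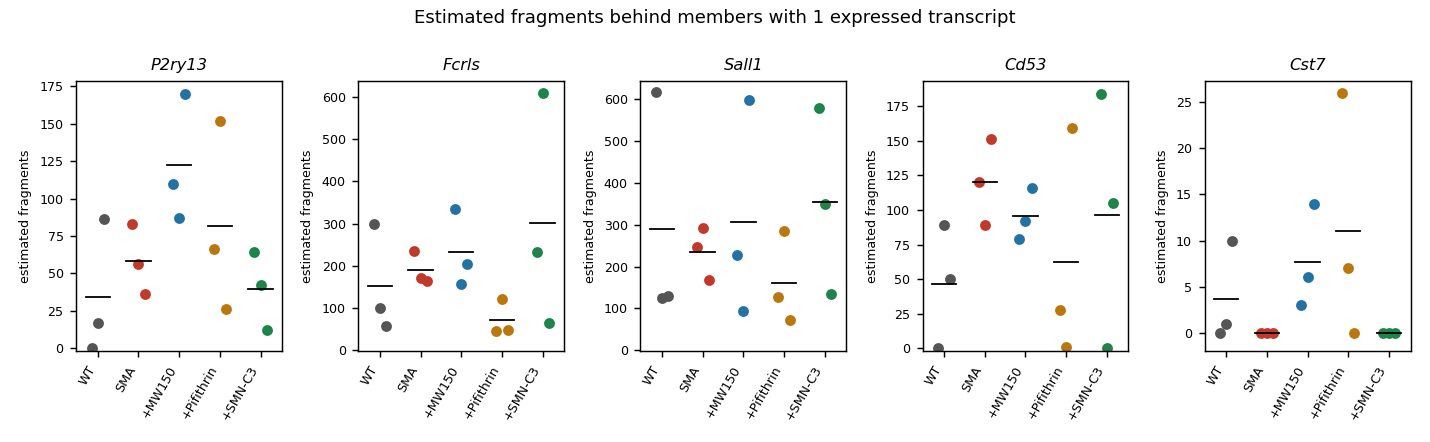
Estimated fragments behind 5 members with 1 expressed transcript (panels) by group; points are libraries and bars are group means of 3 libraries. P2ry13 and Cd53 rest on 0 to 184 estimated fragments and Cst7 on 26 at most, with libraries at 0 in several groups.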

How the data were processed

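The authors deposited TPM values per gene and per transcript, with 1 column for each of the 15 libraries. Kallisto 0.44.0, GRCm38.p6, mm10 and DESeq2 are named in the submitters' processing notes, and the annotation release is not given in the sources used here. Of 118489 deposited transcripts, 116728 (98.5%) matched GENCODE M21, from which positions and transcript types were taken. TPM carry no counts, so no count model was used, and the depth of each value is unknown beyond the estimate given above.

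The 15425 genes that reached 1 TPM in 3 or more libraries were tested as log2(TPM+1) in 1 linear model with a mean per group over all libraries (limma 3.58.1, moderated variances with a trend, R 4.3.3). Tests were two-sided, adjusted by Benjamini-Hochberg within each comparison, and called at an adjusted p under 0.05; intervals are at 95%. The fit was tested on simulated data. Tables and plots used Python 3.11.15, pandas 2.3.3 and matplotlib 3.10.9. Alternatives were another pseudocount, other filters, median-of-ratios scaling, removal of mitochondrial genes, array weights, a replicate block, a fit on the compared groups only and leaving out each library. Gene values rebuilt from transcripts and leaving out WT 1 and SMA+Pifithrin-alpha 3 were added after the data had been seen.

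All 35 members are reported. Values by library are given for the 8 state genes, for any member called and for the 2 members of each role with the highest mean TPM. Of the other microglia, state, signalling, ligand, inflammatory and astrocyte lists, called genes or the 2 with the highest mean TPM are named. Mrc1, Lyve1 and S100a9 are named as markers of their cell types, outside that rule. No genes are named for the oligodendrocyte, vascular, red blood cell and lymphocyte lists. The members and lists were chosen with earlier results of these data known.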

Additional observations from a re-analysis of the deposited data

How the results depend on the processing

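TPM of these low genes limits precision: 3 libraries a group, no counts, and many members near 1 TPM. The median of all members kept its direction in SMA against WT in all 6 leave-one-out fits (0.581 to 0.845) and in 10 other settings (0.581 to 0.978), in Pifithrin-alpha against SMA (-0.894 to -0.432 and -0.809 to -0.429) and in SMN-C3 against SMA (-0.867 to -0.605 and -1.07 to -0.541). With a pseudocount of 0.1 the median was -1.07 for all members and -1.26 for the core in SMN-C3 against SMA (all genes -0.27). It was 0.99 for the core in MW150 against WT (all genes 0.39). In MW150 against SMN-C3 it was 0.92 for all members and 1.16 for the core (all genes 0.36). A pseudocount of 1 understates changes near 1 TPM more than 0.1 does, and how much of the difference this makes was not tested. With a mean TPM of at least 5, which left 7 core genes, the core median was -1.25 in Pifithrin-alpha against SMA. In Pifithrin-alpha against SMN-C3 the leave-one-out medians ran from -0.343 to 0.254 for all members and from -0.249 to 0.339 for the core, lowest without SMA+Pifithrin-alpha 1. The leave-one-out medians of all members also crossed 0 in MW150 against SMA (-0.189 to 0.0525), Pifithrin-alpha against WT (-0.24 to 0.235) and SMN-C3 against WT (-0.114 to 0.0624). With a mean TPM of at least 5 the last pair were 0.206 and 0.211.

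The number of members called was 0 in the main fit and moved as follows; the cause was not tested. Array weights gave SMA+Pifithrin-alpha 2 a weight of 276, the others 0.0942 to 1.83, so the comparisons with Pifithrin-alpha are weighted almost wholly to 1 of its libraries. They called 1 member in SMA against WT (Ly86, 1.18, adjusted p = 0.044 with limma), 17 in Pifithrin-alpha against SMA, 6 in SMN-C3 against SMA, 8 in Pifithrin-alpha against WT, 16 in MW150 against Pifithrin-alpha, 9 in MW150 against SMN-C3 and 11 in Pifithrin-alpha against SMN-C3. The shares of all genes called were, in that order, 1.05%, 33.4%, 2.15%, 24.4%, 44.2%, 11.3% and 37.5%. The estimation of the weights stopped before it reached its tolerance. All comparisons share that fit, so none of these calls is relied on. Without WT 1 and SMA+Pifithrin-alpha 3, 1 member was called in SMN-C3 against SMA (Ly86; 1.09% of all genes) and 1 in MW150 against SMN-C3 (Cx3cr1; 2.46%), and with only the compared groups 1 in the latter (Cx3cr1; 4.8%). Leaving out 1 library gave 0 to 1 in SMN-C3 against SMA (Spp1 without SMA 3) and 0 in the other comparisons.

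The labels do not say whether libraries of the same replicate number share a litter or batch, and the main fit did not pair them. Deviations of same-numbered libraries correlated at -0.34 to 0.29 over 30 pairs, 3 of them above 0.1. With 3 libraries a group, such values cannot decide whether the samples were paired. With the replicate block 0 members were called in every comparison.

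Signs that turned in SMA against WT were those of Gpr34 (0.17 with a pseudocount of 0.1, 0.81 with array weights, 0.75 without WT 1 and SMA+Pifithrin-alpha 3, leave-one-out -0.93 to 0.75), Sall1 (-0.064 with median-of-ratios scaling, leave-one-out -0.049 to 0.43), Lpl (-0.057 with that scaling, leave-one-out -0.23 to 0.48), Aif1 (-0.081 with array weights) and Cd14 (-0.27 with array weights, -0.016 without the libraries of highest mitochondrial share, leave-one-out -0.016 to 0.67). P2ry12 stood near 0 in MW150 against SMA (leave-one-out -0.25 to 0.09) and in Pifithrin-alpha against SMA (0.22 with median-of-ratios scaling, 0.092 without mitochondrial genes, 0.21 without the libraries of highest mitochondrial share, leave-one-out -0.34 to 0.21). Of the 68 values of members in treated groups against SMA not named here, 28 changed sign in at least 1 setting, none with a main value over 0.63 in size, and 6 were called in at least 1, all in Pifithrin-alpha against SMA.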

Other observations

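Lists of vascular and red blood cell genes were read in the same way. Of 12 vascular genes, 11 were tested. In SMA against WT 5 were above 0 and 6 below, with a median log2 change of -0.22 (all genes 0.24), and none was called. The list summed to 88.8 to 112.9 TPM in WT and 131.9 to 187 in SMA, without overlap. It summed to 101.2 to 157.7 TPM with MW150, 53.5 to 111.4 with Pifithrin-alpha and 57.4 to 98.05 with SMN-C3. The sum, in which abundant genes weigh most, was thus higher in SMA while the median change was not. Of 6 red blood cell genes, 5 were tested and all 5 were above 0 with a median of 0.54, none called (66.5% of all genes above 0). Their sum varied from 300.3 to 3548 TPM between libraries.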
